A study of Mus musculus with 32 samples.

Results

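Voltage-gated sodium channel subunits were followed by the expression of their genes in mouse cerebrum and spinal cord after photothrombosis, a model in which light activates a dye in the blood and closes small vessels. The genes were chosen by name, as the pore-forming alpha subunits Scn1a, Scn2a, Scn3a, Scn8a, Scn9a and Scn7a and the auxiliary beta subunits Scn2b, Scn3b and Scn4b. Of these 9 genes, 8 had a probe in the table of 19505 named genes, with 1 probe each, and Scn9a had none and was not analysed here. The 32 microarrays fell into 8 groups of 4: spinal cord at day 1, day 3 and day 7 after spinal cord photothrombosis (scPT) with the controls of that model, and cerebrum at day 1, day 3 and day 7 after cerebral photothrombosis (cPT) with the controls of that model. All mice were male wild-type C57BL/6J, 6 to 12 weeks old when the experiments began, and carried no transgene. What was done to the control mice, how much tissue around the lesion was taken, and whether each array was a separate animal are not given in the labels.

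These channels open when a membrane depolarises and carry the inward sodium current of the action potential, and inactivate shortly afterwards. The alpha subunit forms the pore, and the single-pass beta subunits change its gating and its surface level and act as adhesion molecules. In the central nervous system Scn1a (Nav1.1) is known for its role in parvalbumin interneurons, Scn2a (Nav1.2) for excitatory neurons and unmyelinated axons, Scn3a (Nav1.3) for the embryonic brain, and Scn8a (Nav1.6) for the axon initial segment and the nodes of Ranvier of mature myelinated axons. Scn7a encodes Nax, a related channel that responds to extracellular sodium and is not opened by voltage, and that is present in sensory ganglia and circumventricular organs. Scn4b supplies the beta subunit linked to resurgent current, Scn2b pairs with alpha subunits by a disulphide bond, and Scn3b binds without one.

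All values below are log2 values that the authors had centred probe by probe, so 0 is near the median of the arrays, a level has a meaning only against other arrays of the same gene, and levels of different genes are not compared. The controls and day 1 arrays had been centred together, and day 3 and day 7 each apart, so the day 3 and day 7 values were moved back to the scale of the controls. A rebuilt shift carries an allowance of 0.135 at day 3 and 0.147 at day 7, and the limma test at these times asks whether a difference exceeds it. Adjusted p-values are Benjamini-Hochberg values over all 19505 genes, with 0.05 as the threshold. Array medians lay between -0.0553 and 0.0333. Marker genes matched the tissue labels: all 5 measured cortical excitatory markers were lower in cord than in cerebrum controls, and 5 of 6 markers of glycinergic and motor neurons and all 6 measured myelin genes were higher. One array was unlike the rest of its group: cord day 3 replicate 1, to which limma gave a weight of 0.225 where an average array has 1. In these tissue samples fewer cells of a type and less RNA per cell cannot be told apart.

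The genes sit in a few clusters. On mouse chromosome 2, Scn3a and Scn2a are neighbours, and Scn1a, Scn9a and Scn7a follow one another. Scn2b and Scn4b are neighbours on chromosome 9, which also holds Scn3b and the neighbours Scn10a and Scn11a, and Scn8a is on chromosome 15. Windows of 300 bases around the gene start (RefSeq, GRCm38.p6) were on hand for 7 of the 9 genes, in 9 windows, and 4 are shown because the results turn on these genes: Scn1a (chr2:66440788-66441087, minus strand) and Scn4b (chr9:45138374-45138673, plus strand) for the largest falls in injured cord, Scn2b (chr9:45117626-45117925, plus strand) as the neighbour of Scn4b, and Scn7a (chr2:66784861-66785160, minus strand) for its split among cord arrays. Each runs 5′ to 3′ on the strand of the gene, and capitals mark CG dinucleotides.
Scn1a: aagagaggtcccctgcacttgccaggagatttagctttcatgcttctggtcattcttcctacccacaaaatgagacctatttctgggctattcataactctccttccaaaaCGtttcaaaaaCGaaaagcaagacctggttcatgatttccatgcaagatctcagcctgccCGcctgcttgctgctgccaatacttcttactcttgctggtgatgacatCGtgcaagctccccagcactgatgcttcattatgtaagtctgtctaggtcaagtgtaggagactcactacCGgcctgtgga
Scn4b: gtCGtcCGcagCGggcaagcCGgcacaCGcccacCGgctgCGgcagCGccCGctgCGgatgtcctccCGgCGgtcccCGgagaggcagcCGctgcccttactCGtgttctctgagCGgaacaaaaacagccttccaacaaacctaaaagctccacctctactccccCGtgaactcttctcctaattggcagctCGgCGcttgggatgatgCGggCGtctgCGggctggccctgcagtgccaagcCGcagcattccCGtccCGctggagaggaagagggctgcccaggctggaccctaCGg
Scn2b: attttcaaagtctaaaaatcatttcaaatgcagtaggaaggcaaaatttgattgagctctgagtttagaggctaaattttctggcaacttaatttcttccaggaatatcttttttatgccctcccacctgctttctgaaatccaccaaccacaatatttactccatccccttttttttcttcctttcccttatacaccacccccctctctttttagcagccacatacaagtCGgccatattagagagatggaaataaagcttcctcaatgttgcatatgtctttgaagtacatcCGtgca
Scn7a: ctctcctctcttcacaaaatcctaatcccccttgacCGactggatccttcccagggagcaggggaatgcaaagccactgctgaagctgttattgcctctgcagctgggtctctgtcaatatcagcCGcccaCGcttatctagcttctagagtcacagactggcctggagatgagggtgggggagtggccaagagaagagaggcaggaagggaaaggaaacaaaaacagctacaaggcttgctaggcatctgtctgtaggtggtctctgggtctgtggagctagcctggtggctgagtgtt
The Scn4b window held 26 CG dinucleotides at 66.3% G+C, and that of its neighbour Scn2b held 2 at 38.3%. The windows of Scn1a and Scn7a held 5 and 3, and the median over 32851 windows was 7 with 52.7% G+C. The first window of Scn8a was the densest of the 9, with 38 CG dinucleotides. On both strands, an E-box (CANNTG) was found in 6 of the 9 windows against 72.3% of all windows. A GC box (GGGCGG) was found in 1, against 35.7% of all, a TATA box (TATAAA) in 1 against 13.6%, and the core of a CRE (TGACG) in 0 against 20.8%. The left part of the RE1 element (CAGCACC) was found in 0 against 7.14%, and its right part (GGACAG) in 1 against 22.2%. No motif search here bears on binding of a factor.

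In spinal cord the pore-forming gene Scn1a fell at each time and furthest at day 7. Its log2 values were 0.90, 0.11, 0.53 and 0.24 in controls, -0.28, -0.61, -0.01 and 0.01 at day 1, -0.87, -0.48, -0.98 and -1.32 at day 3, then -1.96, -2.90, -1.98 and -1.85 at day 7. No injured array reached the lowest control array, and the day 7 arrays also lay below all day 3 arrays. The log2 difference from controls was -0.67 ± 0.20 (SE) at day 1 (limma adjusted p = 0.00997), -1.36 ± 0.20 at day 3 (adjusted p = 1.15e-05) and -2.62 ± 0.20 at day 7 (adjusted p = 4.58e-12), a 6.15-fold lower level at day 7. Ordered by difference, Scn1a was the 10th lowest of all genes at day 7.

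Scn3a, the alpha subunit best known from the embryonic brain, fell at the same 3 times. Its values were -0.30, -0.50, -0.11 and -0.30 in cord controls, -0.83, -1.29, -0.61 and -0.82 at day 1, -1.18, -1.27, -1.01 and -1.60 at day 3, then -1.50, -2.12, -1.31 and -1.59 at day 7. Every injured array was below every control array. The log2 differences were -0.58 ± 0.18 at day 1 (limma adjusted p = 0.0116), -0.96 ± 0.18 at day 3 (adjusted p = 4e-04) and -1.33 ± 0.18 at day 7 (adjusted p = 1.03e-06).

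Scn8a, the nodal channel, passed the test at day 7 alone among the 3 times. Its values were 0.30, 0.04, 0.29 and -0.39 in cord controls, 0.02, -0.03, -0.10 and 0.20 at day 1, -0.35, -0.23, -0.40 and -0.59 at day 3, then -0.86, -1.31, -1.13 and -1.15 at day 7. Day 7 arrays lay below all others, while day 1 and day 3 arrays overlapped the controls, of which replicate 4 was low. The log2 difference was -1.17 ± 0.13 at day 7 (limma adjusted p = 8.19e-08), with -0.45 ± 0.13 at day 3 (adjusted p = 0.0511) and -0.04 ± 0.13 at day 1 (adjusted p = 0.864).

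Scn2a, the channel of excitatory neurons, also passed at day 7 alone among the 3 times, and its day 7 and control arrays overlapped. Values were -0.45, -1.08, -1.12 and -0.41 in cord controls, -0.81, -0.90, -1.13 and -0.86 at day 1, -1.16, -0.90, -1.04 and -1.51 at day 3, then -1.38, -2.46, -1.02 and -1.48 at day 7. Controls 2 and 3 lay within the range of the day 1 arrays and of the day 3 arrays. The log2 difference at day 7 was -0.82 ± 0.21 (limma adjusted p = 0.00615), and it was -0.53 and no longer past the threshold without day 7 replicate 2, the lowest array.

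**Figure D1:**
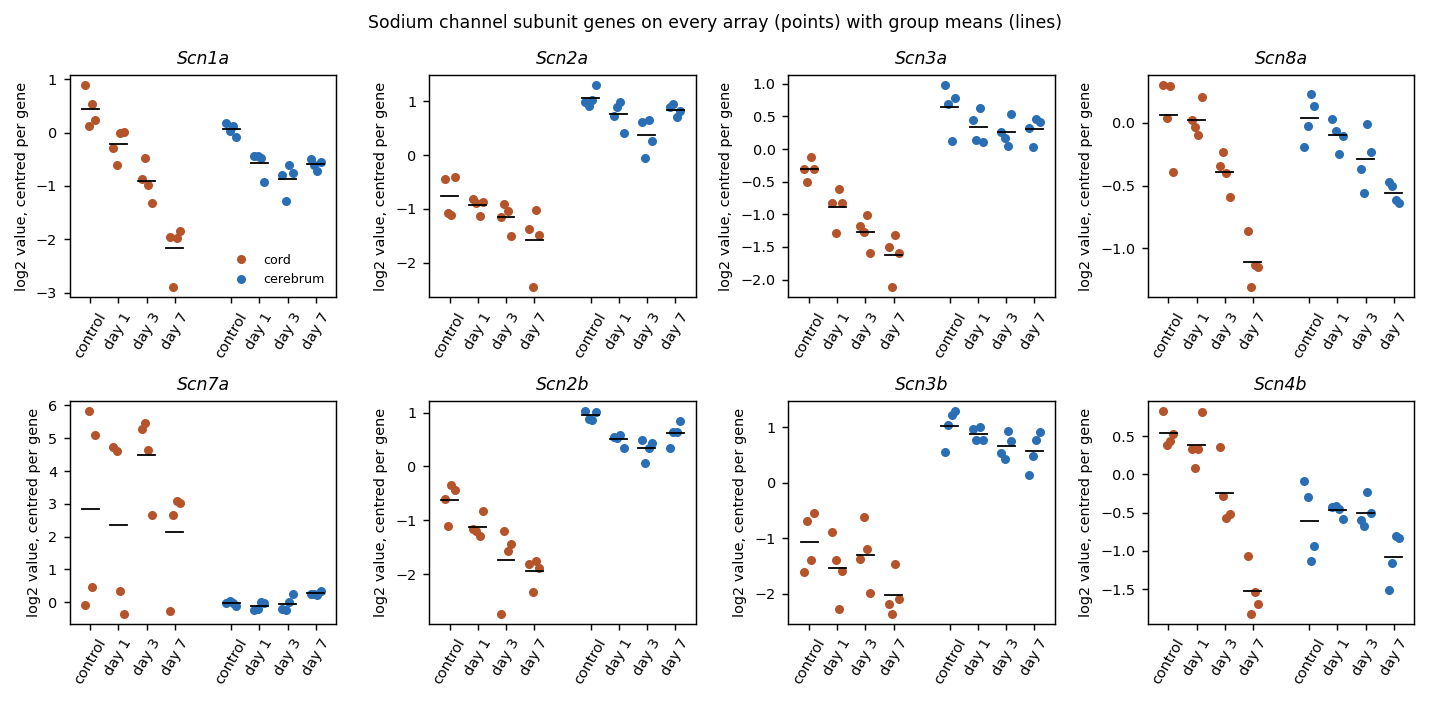
Log2 values (centred per gene) of the 8 measured subunit genes on every array, with cord in brown to the left and cerebrum in blue to the right. Points are the 4 arrays of a group and lines their mean. Scn1a and Scn4b reach -2.17 and -1.53 on average in cord at day 7, and Scn7a splits into high and low cord arrays.

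Among the beta subunits, Scn4b had the largest fall in cord at day 7, while at day 3 that of Scn2b was larger. The day 3 order turned without day 3 replicate 1, the array that stood apart, at -0.77 for Scn2b and -0.996 for Scn4b. The log2 values of Scn4b were 0.83, 0.38, 0.44 and 0.53 in controls, 0.34, 0.08, 0.33 and 0.81 at day 1, 0.36, -0.28, -0.57 and -0.51 at day 3, then -1.06, -1.82, -1.54 and -1.70 at day 7. Of the day 1 arrays 1 lay within the range of the controls and 3 below it, day 3 arrays were all below it, one by a narrow margin, and day 7 arrays were below every other cord array. The differences were -0.15 ± 0.21 at day 1 (limma adjusted p = 0.615), -0.79 ± 0.21 at day 3 (adjusted p = 0.0127) and -2.08 ± 0.21 at day 7 (adjusted p = 3.11e-09), a 4.22-fold lower level. This size depends on the rebuilt shift: with the values as deposited the day 7 difference was -1.19 (adjusted p = 2.08e-05) and the day 3 difference -0.51 (adjusted p = 0.0648).

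Scn2b, which lies next to Scn4b, fell at day 3 and day 7. Cord values were -0.60, -1.10, -0.35 and -0.43 in controls, -1.16, -1.20, -1.29 and -0.82 at day 1, -2.73, -1.19, -1.56 and -1.43 at day 3, then -1.80, -2.32, -1.76 and -1.88 at day 7. The lowest value at day 3 was on replicate 1, the array that stood apart. The differences were -0.50 ± 0.21 at day 1 (limma adjusted p = 0.064), -1.10 ± 0.21 at day 3 (adjusted p = 0.000355) and -1.32 ± 0.21 at day 7 (adjusted p = 1.23e-05).

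Scn3b passed at day 7 alone among the 3 times. Its values were -1.61, -0.70, -1.40 and -0.55 in cord controls, with replicates 2 and 4 high, -0.90, -1.40, -2.28 and -1.59 at day 1, -1.38, -0.62, -1.19 and -1.99 at day 3, then -2.19, -2.36, -1.46 and -2.10 at day 7. The day 7 difference was -0.96 ± 0.27 (limma adjusted p = 0.00861), and the arrays overlapped. At day 1 and day 3 the differences were -0.48 ± 0.27 (adjusted p = 0.171) and -0.23 ± 0.27 (adjusted p = 0.715).

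Counted over the family, 2 of 8 measured members fell in cord at day 1, where 16.1% of all genes fell, 4 at day 3, where 11.2% fell, and 7 at day 7, where 18.3% fell. None rose at these 3 times by limma, where 15.8%, 11.2% and 16.2% of all genes rose at the same adjusted threshold. At an unadjusted limma p under 0.05, 0 members rose, and the share of all genes at that threshold is not given here. The median log2 difference of the 8 members was -0.485 at day 1, -0.622 at day 3 and -1.24 at day 7, beside 0.02, -0.08 and -0.10 over all genes. Groups did not overlap for 5 members at day 7, all lower, where 24.8% of all genes did so. The day 1 calls of Scn1a and Scn3a were lost without day 1 replicate 2 (-0.54 and -0.45), that of Scn1a also without control 1 (-0.52), and the day 3 call of Scn4b without control 1 (-0.70) or day 3 replicate 3 (-0.68). With quantile normalisation added, 3 of the 7 calls at day 7 remained: Scn1a at -1.86, Scn4b at -1.56 and Scn8a at -0.73. The others were -0.61 for Scn3a (adjusted p = 0.0589), -0.46 for Scn2b (adjusted p = 0.129), -0.13 for Scn3b (adjusted p = 0.917) and -0.11 for Scn2a (adjusted p = 0.927).

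Skeletal muscle RNA moved with the cord groups. The mean of the 5 muscle markers was 0.55, -0.21, 0.52 and 0.18 at day 1, against 4.70, 4.23, 1.90 and 0.51 in controls, and between -0.09 and 1.92 on the day 3 and day 7 arrays. All 5 markers were lower at day 1 and day 3, and 4 at day 7. With that score as a covariate, added after seeing the data, 1 member was called at day 1. It was Scn2b at -0.96 (limma adjusted p = 0.00863), while Scn1a was -0.35 ± 0.26 (adjusted p = 0.382) and Scn3a -0.54 ± 0.25 (adjusted p = 0.126). Without the covariate they were -0.67 ± 0.20 and -0.58 ± 0.18, so Scn3a lost its call with a similar difference and a larger SE. The share of all genes called with this covariate is not given here. At day 3, 3 members were called, without Scn4b (-0.55, adjusted p = 0.211), and at day 7, 6 were, without Scn2a (-0.79, adjusted p = 0.0585), with Scn1a at -2.32 and Scn4b at -1.81.

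**Figure D2:**
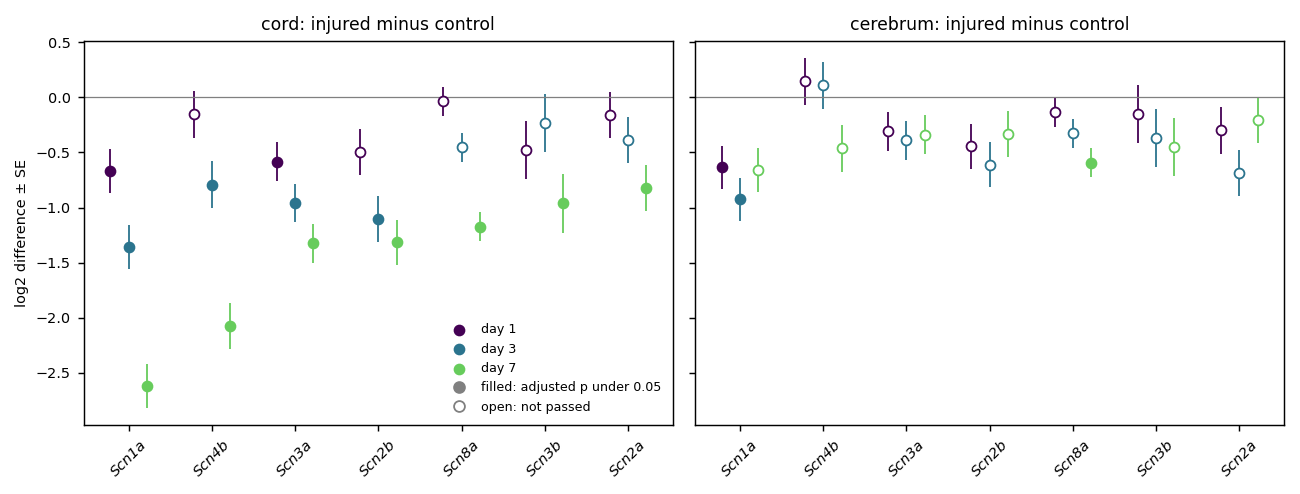
Log2 difference of injured minus control (vertical axis, with SE) for 7 subunit genes in cord (left panel) and cerebrum (right panel) at day 1, 3 and 7. Filled points passed an adjusted p of 0.05. In cord all 7 genes are filled at day 7, and in cerebrum Scn1a is filled at day 1 and day 3 and Scn8a at day 7. Scn7a is left out because its SE is 1.02.

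The sizes of the falls in cord at day 7 were also set against one another. All 21 pairs of the 7 members that fell were compared after their values had been seen, by an exact two-sided permutation test on the within-array difference of each pair. Arrays did not overlap for 9 pairs, 5 of them with Scn1a and 4 with Scn4b as the member that fell further. The change of Scn1a was 1.80 log2 units lower than that of Scn2a and 1.29 lower than that of Scn3a, its chromosome 2 relatives. The change of Scn4b was 0.76 lower than that of its neighbour Scn2b, an order that turns with the values as deposited (-1.19 for Scn4b, -1.31 for Scn2b and -1.28 for Scn3a). There Scn1a was still lowest, at -2.33. On the rebuilt scale Scn1a and Scn4b differed by 0.54, with arrays that overlapped (exact p = 0.0857, adjusted p = 0.15). For 4 arrays against 4 the smallest exact p is 0.0286, and after adjustment over 21 pairs these 9 stood at 0.0667, so no pair passed 0.05.

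Scn7a, the sodium-sensing relative, split the cord arrays into high and low ones within groups. Its values were -0.07, 5.83, 0.47 and 5.11 in cord controls, 4.74, 4.62, 0.35 and -0.35 at day 1, 5.27, 5.45, 4.63 and 2.66 at day 3, then -0.27, 2.65, 3.10 and 3.04 at day 7. Thus 11 of 16 cord arrays lay between 2.65 and 5.83 and 5 between -0.35 and 0.47, and the 16 cerebrum arrays lay between -0.25 and 0.35. The differences from controls, -0.49 ± 1.02 at day 1, 1.67 ± 1.02 at day 3 and -0.70 ± 1.02 at day 7, did not pass the test (limma adjusted p = 0.748, 0.289 and 0.739).

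The same 11 arrays were high in Scn10a and Scn11a, the tetrodotoxin-resistant channels of nociceptive sensory neurons. Scn10a was at 2.47 to 7.38 on these 11 and at -0.23 to 0.07 on the other 5, and Scn11a at 2.23 to 6.60 and at -0.23 to 0.16. Of 5 measured marker genes of dorsal root ganglion neurons, 4 (Prph, Trpv1, P2rx3 and Avil) were higher on each of the 11 than on any of the 5, and Mrgprd overlapped. The mean over the 5 markers ranged from 0.17 to 3.43 in controls, 0.42 to 2.32 at day 1, 1.75 to 3.66 at day 3 and 0.11 to 1.78 at day 7. P2rx3 was also high on the cerebrum day 3 arrays, at 1.69 to 1.87 against -0.585 to -0.009 in cerebrum controls. Whether its rebuilt day 3 shift lifted the day 3 means was not tested. The 4 measured genes listed for Schwann cells (Pmp2, Cdh19, Sox10 and Mal) and the 5 muscle markers did not separate the arrays this way. These 4 were higher in cord than in cerebrum controls, as the myelin genes were, so they cannot single out Schwann cells here.

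With the ganglion score as a covariate, added after seeing the data, 3, 5 and 7 members were called lower in cord at day 1, 3 and 7. The share of all genes called in that fit is not given here. Scn1a at day 7 was then -2.67 and Scn4b -2.12, Scn3b at day 3 reached -0.70 (limma adjusted p = 0.0284), and Scn7a at day 7 was 0.52 (adjusted p = 0.509). The day 3 results rest on scores that include P2rx3. With the cord arrays that had Scn10a under 1 alone, 2 controls, 2 day 1 arrays and 1 day 7 array remained and no day 3 array. On these arrays 2 members were called lower at day 1, with 2 controls and 2 day 1 arrays. The share of all genes called there is not given here, so the count has nothing to be set against. With 1 array at day 7 no call is given for that time.

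**Figure D3:**
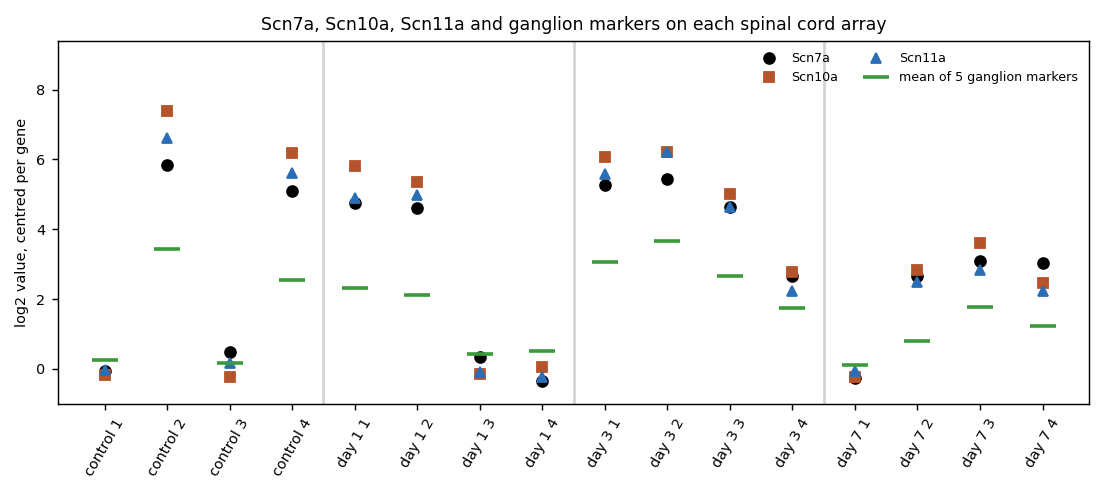
Log2 values (centred per gene) of Scn7a, Scn10a and Scn11a on each of the 16 cord arrays, with the mean of 5 ganglion markers as a bar. The 3 channel genes are high together on 11 arrays and near 0 on control 1 and 3, day 1 replicates 3 and 4, and day 7 replicate 1.

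Between the controls of cord and cerebrum, the subunits differed in opposite directions. Cord controls were lower than cerebrum controls in 4 of 8 members, where 17.6% of all genes were lower, and higher in 2, where 17.2% were higher. Scn3b had -1.61, -0.70, -1.40 and -0.55 in cord, against 0.55, 1.04, 1.22 and 1.29 in cerebrum, a difference of -2.09 ± 0.27 (limma adjusted p = 1.25e-07). Scn2a had -0.45, -1.08, -1.12 and -0.41 in cord, against 0.98, 0.91, 1.02 and 1.31 in cerebrum, a difference of -1.82 ± 0.21 (adjusted p = 2.09e-08). The arrays of the tissues did not overlap for either gene.

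The neighbours Scn2b and Scn4b went opposite ways. Scn2b was lower in cord, with -0.60, -1.10, -0.35 and -0.43 against 1.03, 0.88, 0.87 and 1.02 in cerebrum (difference -1.57 ± 0.21, limma adjusted p = 2.13e-07). Scn4b was higher in cord, with 0.83, 0.38, 0.44 and 0.53 against -0.08, -0.29, -1.13 and -0.94 in cerebrum (difference 1.16 ± 0.21, adjusted p = 4.61e-05). Scn3a was lower in cord by a log2 difference of -0.95 ± 0.18 (adjusted p = 5.85e-05). Scn1a (0.38 ± 0.20, adjusted p = 0.14) and Scn8a (0.02 ± 0.13, adjusted p = 0.917) did not pass.

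Scn7a was called higher in cord at 2.86 ± 1.02 (limma adjusted p = 0.0276), with control arrays 2 and 4 high and the others near the cerebrum values. Without array 2 the difference was 1.86 and without array 4 it was 2.10, neither past the threshold, and with cord arrays of low Scn10a alone it was 0.23. In the order of group means, every cerebrum group of Scn2a, Scn3a, Scn2b and Scn3b stood above every cord group, and at the boundary between the tissues the arrays did not overlap. For Scn1a and Scn8a the first 7 groups in the order overlapped each with the next, and cord at day 7 lay apart at the bottom. For Scn4b each group overlapped with the next.

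In cerebrum, the changes were smaller and 1 member passed at each time: Scn1a at day 1 and day 3 and Scn8a at day 7. These stand beside 8.22%, 3.58% and 2.84% of all genes that fell at day 1, 3 and 7. Scn1a had 0.17, 0.04, 0.13 and -0.09 in controls, -0.44, -0.45, -0.48 and -0.93 at day 1, -0.80, -1.28, -0.61 and -0.76 at day 3, then -0.50, -0.62, -0.72 and -0.55 at day 7. All injured arrays were below all control arrays at each time. The differences were -0.64 ± 0.20 at day 1 (limma adjusted p = 0.0251), -0.93 ± 0.20 at day 3 (adjusted p = 0.00565) and -0.66 ± 0.20 at day 7 (adjusted p = 0.0776).

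Scn8a had -0.20, -0.02, 0.23 and 0.13 in cerebrum controls and -0.47, -0.51, -0.62 and -0.64 at day 7, without overlap (difference -0.59 ± 0.13, limma adjusted p = 0.0188). With the values as deposited its difference was -0.16 and did not pass. Scn2b had 1.03, 0.88, 0.87 and 1.02 in cerebrum controls, 0.55, 0.53, 0.58 and 0.35 at day 1, 0.50, 0.06, 0.35 and 0.45 at day 3, then 0.34, 0.65, 0.64 and 0.84 at day 7. Its arrays were below the controls without overlap at each time, with differences of -0.44 at day 1, -0.61 at day 3 and -0.33 at day 7, none past the threshold (adjusted p = 0.142, 0.125 and 0.621). The SE of these differences, 0.21, was pooled over all 8 groups. The SD of Scn2b was 0.09 in cerebrum controls and 0.10 at cerebrum day 1, but 0.68 in cord at day 3. Scn2a had 0.98, 0.91, 1.02 and 1.31 in controls, 0.72, 0.90, 0.99 and 0.41 at day 1, 0.62, -0.05, 0.65 and 0.25 at day 3, then 0.90, 0.96, 0.71 and 0.82 at day 7. It was lowest at day 3, where no array reached the controls, at a difference of -0.69 ± 0.21 (adjusted p = 0.0744).

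The other members overlapped more in cerebrum. Scn3a ranged over 0.13 to 0.99 in controls, 0.11 to 0.64 at day 1, 0.05 to 0.53 at day 3 and 0.03 to 0.46 at day 7, with differences of -0.31, -0.39 and -0.34 (limma adjusted p = 0.246, 0.384 and 0.528). Scn3b ranged over 0.55 to 1.29 in controls, 0.76 to 1.01 at day 1, 0.42 to 0.93 at day 3 and 0.14 to 0.91 at day 7, with differences of -0.15, -0.37 and -0.45 (adjusted p = 0.766, 0.672 and 0.521). Scn7a was 0.22 to 0.35 at day 7, above its controls at -0.11 to 0.03, but its shift at day 7 was known only to within 0.36, and the difference of 0.30 did not pass (adjusted p = 1). The SE of Scn7a, 1.02, was pooled over all 8 groups, with the split cord arrays among them. Scn8a was at -0.13 at day 1 and -0.33 at day 3 (adjusted p = 0.548 and 0.379). The median of the 8 members was -0.224, -0.381 and -0.395 at day 1, 3 and 7, beside -0.01, -0.03 and -0.05 over all genes. At each time 7 of the 8 differences were below 0, and the 3 comparisons share the same controls.

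Of the cerebrum calls, those of Scn1a at day 1 and of Scn8a at day 7 were near the threshold. The day 3 call of Scn1a (limma adjusted p = 0.00565) stayed with each array left out, between -1.01 and -0.79. It was lost in 1 of 11 alternatives, where the adjusted p was 0.0528. The day 1 call of Scn1a was lost without control 1 (-0.60), without control 3 (-0.61) or without day 1 replicate 4 (-0.52), and the day 7 call of Scn8a without control 3 (-0.53), control 4 (-0.56) or day 7 replicate 4 (-0.57). Region markers moved with the groups: all 5 thalamic and subcortical markers were higher at day 1 and 3 of 5 cortical excitatory markers lower, with medians of 1.28 and -0.70. At day 3, 4 of the 5 cortical markers were lower (median -1.40) and 3 of the 5 thalamic ones higher (median 1.29). At day 7, 3 cortical markers were lower and 4 thalamic ones higher. The share of all genes that rose in cerebrum is not given here. The part of these region markers in the subunit differences was not tested.

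Scn4b in cerebrum was uneven among the controls, at -0.08, -0.29, -1.13 and -0.94. The mean of 5 measured striatal markers on the same arrays was 2.14, 1.75, 0.41 and 1.38, so the 2 controls high in Scn4b were also the highest in striatal markers. Injured arrays were at -0.43, -0.41, -0.45 and -0.58 at day 1, -0.60, -0.68, -0.23 and -0.50 at day 3, then -1.51, -1.16, -0.81 and -0.83 at day 7, and overlapped the controls each time. Its differences of 0.15, 0.11 and -0.46 did not pass (limma adjusted p = 0.705, 0.995 and 0.358).

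**Figure D4:**
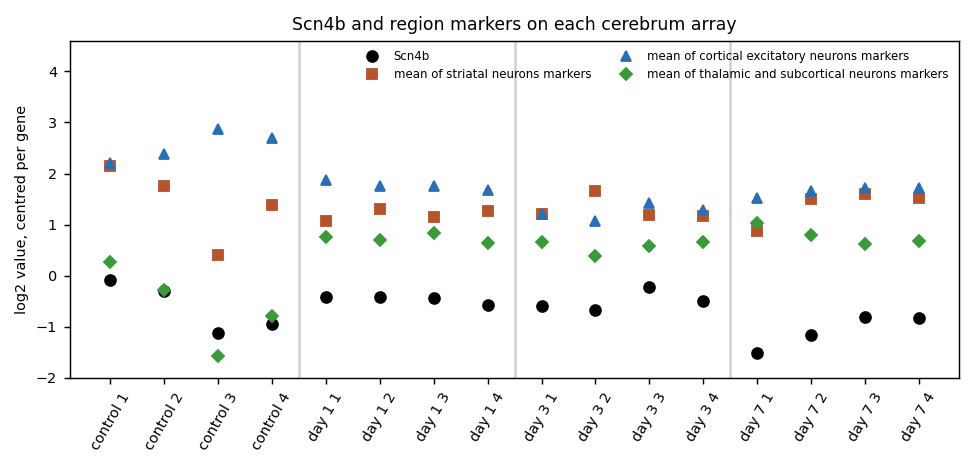
Log2 values (centred per gene) of Scn4b and the means of striatal, cortical excitatory and thalamic marker genes on each of the 16 cerebrum arrays. Controls 1 and 2 are higher in Scn4b, striatal and thalamic markers than controls 3 and 4, and the thalamic mean is above all controls on every injured array.

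Whether cord and cerebrum responded differently was tested as the difference of the injured minus control differences, cord minus cerebrum. No member passed at day 1, where 6.58% of all genes were called lower and 4.70% higher, or at day 3, where 5.19% were lower and 4.08% higher. At an unadjusted p under 0.05 the limma counts were 0 at day 1 and 2 at day 3, both lower. The share of all genes at that unadjusted threshold is not given here. Scn4b at day 3 was closest, at -0.90 ± 0.30 (adjusted p = 0.0525), and 1 member passed there with array weights. At day 7, 5 of 8 members fell further in cord (Scn2b and Scn8a not so under added quantile normalisation), where 14.6% of all genes did, with a median of -0.985 over the members and -0.01 over all genes. Scn1a was at -1.96 ± 0.28 (adjusted p = 3.58e-06) and Scn4b at -1.61 ± 0.30 (adjusted p = 0.000114). Scn3a was at -0.99 ± 0.25 (adjusted p = 0.00309). Scn2b at -0.98 ± 0.29 (adjusted p = 0.0104) and Scn8a at -0.58 ± 0.19 (adjusted p = 0.0201) lost their direction under added quantile normalisation, at 0.03 and 0.0057. With the muscle score as covariate Scn8a was -0.33 (adjusted p = 0.279). Its call was also lost without cord day 7 replicate 2 (-0.51), or, each at -0.50, without cord control 1, cord control 3 or cerebrum control 1. Scn1a stayed past the threshold under added quantile normalisation, at -1.03 (adjusted p = 0.00815), and Scn4b and Scn3a did not, at -0.69 (adjusted p = 0.127) and -0.09 (adjusted p = 0.874). Scn2a (-0.61, adjusted p = 0.13), Scn3b (-0.51, adjusted p = 0.347) and Scn7a (-1.001, adjusted p = 0.667) did not pass.

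Genes around the channel moved in part with the subunits in cord at day 7. Of 18 measured partners at the axon initial segment and node, 12 fell and 2 rose, beside 18.3% and 16.2% of all genes, with a median of -0.73. The largest falls were in Cntnap2 (-1.95 ± 0.17), which clusters potassium channels beside the node, and Ank3 (-1.71 ± 0.13), the ankyrin that anchors sodium channels (limma adjusted p = 2.27e-10 and 6.01e-12). Tnr, an extracellular matrix protein of nodes and perineuronal nets, rose by 1.26 ± 0.15 (adjusted p = 3.87e-07), and the spectrin Sptan1 rose by 0.93 ± 0.14 (adjusted p = 8.72e-05).

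Of 9 measured intracellular regulators, 3 fell and 1 rose in cord at day 7, beside 18.3% and 16.2% of all genes, with a median of -0.42. Those that fell were Fgf14 (-1.77, limma adjusted p = 1.07e-07), Fgf13 (-1.75, adjusted p = 0.0431) and Fgf12 (-1.71, adjusted p = 1.39e-10). They are fibroblast growth factor homologues that bind the channel's tail. Rest, the repressor of neuronal genes, rose by 2.002 (adjusted p = 1.64e-10). Pan-neuronal genes fell in 12 of 15 cases, with a median of -1.02 and the largest falls in the vesicle calcium sensor Syt1 (-2.36, adjusted p = 8.87e-13) and the nuclear marker Rbfox3 (-2.003, adjusted p = 4.18e-11). Interneuron markers fell in 6 of 7 cases, with a median of -1.13: Sst (-2.24), Gad1 (-2.15), Pvalb (-2.04), Slc32a1 (-1.13), Kcnc1 (-1.04) and Gad2 (-0.77). Vip was at -0.54 (adjusted p = 0.0687). Beside these, all 5 macrophage markers were higher, with a median of 6.37, and 4 of 5 fibroblast markers, with a median of 4.06. Their part in the subunit differences was not tested.

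At the earlier times the surrounding lists moved less. In cord at day 1, where 15.8% of all genes rose and 16.1% fell, 4 axonal partners rose and 4 fell of 18, with a median of -0.01, and 1 pan-neuronal gene rose and 2 fell of 15, with a median of -0.16. At day 3, where 11.2% rose and 11.2% fell, the counts were 2 risen and 2 fallen partners and 2 risen and 5 fallen pan-neuronal genes, with medians of -0.23 and -0.38. In cerebrum at day 7 there was 1 fallen partner, Ank3 (-0.62, limma adjusted p = 0.00933), and 1 fallen pan-neuronal gene, Nefm (-0.72, adjusted p = 0.00861). Nalcn, the sodium leak channel outside the voltage-gated family, rose in cord at day 1 (0.40 ± 0.14, adjusted p = 0.0253) and fell at day 7 (-0.72 ± 0.14, adjusted p = 0.000558).

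**Figure D5:**
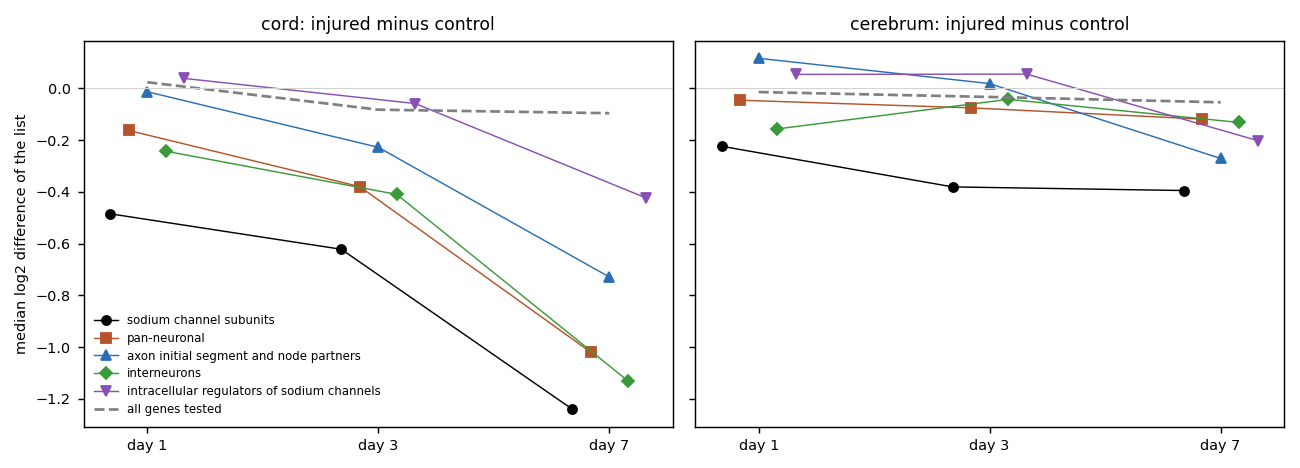
Median log2 difference (injured minus control) of each gene list at day 1, 3 and 7, in cord (left panel) and cerebrum (right panel), with the median of all genes dashed. In cord at day 7 the 8 subunit genes have a median of -1.24, interneuron markers -1.13, pan-neuronal genes -1.02 and axonal partners -0.73.

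For each member and tissue, the gene with the highest Pearson r over the 16 arrays of that tissue was taken as its most similar pattern. These arrays share 4 groups, so an r holds the group differences, and it is given as a description. In cord these were Rit2 for Scn1a (0.984), Bnip3 for Scn4b (0.975), Cds1 for Scn8a (0.972), Kcnd2 for Scn2b (0.967), Ss18l2 for Scn3a (0.965), Lyrm4 for Scn3b (0.937) and Cyp2u1 for Scn2a (0.878). For Scn7a it was Scn11a, with no r given because its cord arrays fall into high and low ones. In cerebrum they were Kcnj3 for Scn1a (0.957), Vxn for Scn8a (0.944), Lmo3 for Scn2b (0.931), Prkaa2 for Scn2a (0.919), Kit for Scn3b (0.900), Cfap57 for Scn7a (0.893), Adcy5 for Scn4b (0.889) and Pcp4 for Scn3a (0.825). Scn7a spanned only -0.25 to 0.35 in cerebrum, and its day 7 shift was known only to within 0.36, so its r there is uncertain.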

How the data were processed

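RNA extracted from snap-frozen tissue with TRIzol was labelled with biotin from 10 ng of total RNA, per the labels' protocols. The deposited table held log2 values of 22206 probes on 32 arrays. How probes were summarised and background was corrected is not given in the sources used here. Intensities were not used here, and signal over background is unknown. Of the probes, 19572 had 1 gene symbol and 2634 none. Probes of a gene were averaged, which concerned 55 genes.

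Testing the deposited log2 values showed a median of 0 over the 16 control and day 1 arrays in 100% of probes. Day 3 and day 7 had been centred with other shifts, which were rebuilt per probe as the shift that sets the median over the 8 controls and the 8 arrays of that day to 0. On probes that could test this, it held in 86.9% (day 3) and 86.4% (day 7), against 61.7% to 70.3% with other sets of arrays in place of the controls. The allowance of 0.135 and 0.147 is the 99.9th percentile of what was missed, a rule settled after the files had been seen.

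Group means were fitted with limma 3.58.1 in R 4.3.3 (24 residual degrees of freedom, all 8 groups together) and compared in 10 contrasts with Benjamini-Hochberg adjustment. Steps in R used matrixStats 1.5.0, and promoter windows, pair tests and figures used Python 3.11.15 with numpy 2.4.6, pandas 2.3.3, scipy 1.17.1 and matplotlib 3.10.9. The fit was tested on simulated data. The members and the 20 other gene lists were chosen with earlier results of these data known. All members were named, as were some genes of short lists, the 2 largest passing changes each way of lists over 10 genes, and the most similar gene per member and tissue. P-values of limma measure the spread between arrays within groups, pooled over all 8 groups, and this spread may be technical. Array names run in number ranges that differ between groups. Should a range be a batch, then its effect and that of the group cannot be told apart. The alternatives tried were the values as deposited, an exact shift, other scalings, array weights, robust variances, fewer groups or controls, 1 probe per gene, each replicate left out, and, added after seeing the data, a larger allowance, marker scores as covariates and cord arrays low in Scn10a.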

Additional observations from a re-analysis of the deposited data

Results flagged for a closer look

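Single arrays stood apart from the other 3 of their group in 3 of the 64 group and gene combinations looked at, where chance alone gives about 1 in 20. Scn1a was at -0.925 on cerebrum day 1 replicate 4, with the next array at -0.481. Scn1a was at -2.90 on cord day 7 replicate 2, with the next at -1.98, and that array was also the lowest of its group for Scn2a, Scn3a, Scn8a, Scn2b, Scn3b and Scn4b. Scn7a was at -0.266 on cord day 7 replicate 1, while the others were at 2.65 to 3.10.

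The response in cord minus that in cerebrum at day 7 was past the threshold for Scn1a (-1.96), Scn4b (-1.61), Scn3a (-0.987), Scn2b (-0.983) and Scn8a (-0.579), by the interaction contrast in limma. The directions of Scn2b and Scn8a turn under added quantile normalisation. Scn4b and Scn3a lose their calls there, at -0.69 (limma adjusted p = 0.127) and -0.09 (adjusted p = 0.874). Scn1a keeps its call, at -1.03 (adjusted p = 0.00815).

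Outside the subunits studied, Scn10a reached 7.38 and Scn11a 6.60 on a cord array, while the highest cerebrum arrays were at 0.210 and 0.332. Both were near 0 on the 5 cord arrays that were low in Scn7a, and the ganglion markers Prph, Trpv1, P2rx3 and Avil separated the same arrays, Trpv1 and Avil by narrow margins. How ganglion RNA came to be on some cord arrays was not tested.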

How the results depend on the processing

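No paired analysis was possible because the labels number no replicates, and the numbers used here follow accession order. The larger moves in the counts of subunit genes past the threshold were as follows. With the values as deposited, 0 passed in cerebrum at day 7, and with the largest miss as allowance, 0. With the shift taken as exact, 3 passed in cerebrum at day 3 and 2 at day 7. With quantile normalisation added, 2, 3 and 3 passed in cerebrum at day 1, 3 and 7, 1 in cord at day 1, 3 in cord at day 7, and 1 for the difference between the responses at day 7. There Scn8a (0.005735) and Scn2b (0.03468) reversed their difference between responses. Scaling to a common 75th percentile gave 1 for the difference between responses at day 3, and so did array weights, which gave 2 in cerebrum at each of day 1, 3 and 7. With only the groups compared, cerebrum gave 2, 3 and 2. Cerebrum controls 1 and 2 alone gave 0 in cerebrum at day 1. Controls 3 and 4 alone gave 0 at day 1, 0 at day 3 and 1 for the difference between responses at day 3. The muscle score as covariate gave 1 in cord at day 1. Smaller moves with it were to 3 in cord at day 3, 6 at day 7 and 4 for the difference between responses at day 7, and with the ganglion score to 3 in cord at day 1 and 5 at day 3. The count for cord against cerebrum controls lay between 5 and 7. The cause of these moves was not tested. In the fits on fewer arrays, the number of arrays and the choice of arrays changed together.

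Leaving out 1 array at a time gave 0 to 1 in cerebrum at day 1, 1 at day 3 and 0 to 1 at day 7. It gave 0 to 3 in cord at day 1, 3 to 5 at day 3 and 6 to 7 at day 7. For the difference between responses it gave 0 to 0, 0 to 1 and 4 to 6 at day 1, 3 and 7, and for cord against cerebrum controls 5 to 6. Both cord calls at day 1 were lost without day 1 replicate 2, and that of Scn1a without control 1 (-0.52). The day 3 call of Scn4b was lost without control 1 (-0.70) or day 3 replicate 3 (-0.68). Scn1a at day 3 and day 7 in cord kept its call under each alternative run, between -1.40 and -1.07 and between -2.68 and -1.86, and with 1 array left out between -1.50 and -1.21 and between -2.73 and -2.38. A filter on dim probes was not run, since no intensities were used here.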

Other observations

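Outside the comparisons of subunit genes, astrocyte and endothelial markers rose in cerebrum at day 1, with 6 of 6 and 3 of 4 measured genes higher and medians of 0.82 and 0.86. Markers of pituitary and hypothalamus were lower in 6 of 7 cases there, with a median of -0.90, where 8.22% of all genes fell. Of microglial markers, 3 of 5 (Csf1r, Cx3cr1 and Aif1) were higher at day 7 in both cord and cerebrum, with medians of 1.76 and 1.46 over the list. In cord 16.2% of all genes rose at that time, and the shares that rose in cerebrum at day 1 and day 7 are not given here. P2ry12 (-0.07 in cord and -0.01 in cerebrum) and Tmem119 (0.39 and 0.235) did not pass. Precursors of oligodendrocytes had 2 of 4 markers higher in cord at day 7, with a median of 0.98.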
